A study of Mus musculus with 4 samples.

Results

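The circadian clock genes were examined in bone marrow cells of mice sorted as Thy1+ LSK, that is lineage-negative cells with Sca-1 and Kit on their surface, among which haematopoietic stem cells are enriched. The set held 10 genes chosen by name, and 9 of them had an array row annotated with their symbol alone (Clock, Arntl, Per1, Per3, Cry1, Cry2, Nr1d1, Nr1d2 and Dbp), out of 22180 genes with such a row. The rule takes the brightest row of a gene with more than 1, but each of the 9 genes had a single row of this kind. Per2 stood only in a row shared with another symbol, so no value was assigned to it. Of the 9 measured genes, 8 passed the filter on dim signals and were tested with 16635 genes in all. Cry2 did not pass it.

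Whole-transcript arrays had been hybridised with RNA from 2 samples of Nol3+/+ mice and 2 samples of Nol3-/- mice labelled MPN, taken here as myeloproliferative neoplasm. Both groups had the C57BL/6 background, an age between 11 and 18 months and no treatment, and the cells were not cultured. Nol3 encodes an inhibitor of apoptosis. The sample labels give MPN to the Nol3-/- group only, while the series title can be read as giving it to both genotypes. The labels used here give neither the sex of the animals, nor the hour of the day at which they were killed, nor the design of the Nol3 allele, and do not say whether an array held 1 animal or a pool. The p-values thus reflect how much these 4 arrays vary, which may be technical.

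The mammalian clock is a feedback loop of transcription. CLOCK and BMAL1 (the product of Arntl) bind E-box elements as a pair and activate the Period (Per) and Cryptochrome (Cry) genes, whose products return to the nucleus and inhibit the pair. The same pair activates Nr1d1 and Nr1d2, which encode the REV-ERB nuclear receptors that repress Arntl, and Dbp, a factor that binds D-box elements in output genes. In bone marrow, the release of stem and progenitor cells into the blood is known to follow a daily rhythm.

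The loop acts through short DNA elements in the control regions of clock genes. RefSeq windows of GRCm38.p6 were searched over the 250 bases before each annotated start for the E-box CACGTG, the D-box TTATGTAA or TTACGTAA, the REV-ERB and ROR element (RORE) TAGGTCA or TGGGTCA, and the cyclic AMP response element (CRE) TGACGTCA, on both strands. No searched motif overlapped another in the windows printed. The 9 measured genes had 13 such windows. An E-box lay in 2 of the 13 windows, against 6.02% of the 32851 windows of all genes. These were the Cry1 window and 1 of 2 Per1 windows. D-boxes lay in 1 of the 13, the Per3 window, against 0.931% of all windows. The windows of Clock, Arntl, Cry2, Nr1d1, Nr1d2 and Dbp held none of the searched letters. No window of the 9 genes held the RORE or CRE letters searched, which 5.38% and 1.55% of all windows held. A match describes the letters only and says nothing about binding. An absence covers only these exact letters in these 250 bases, and says nothing about variant or more distant elements. The windows of Per1, Cry1 and Per3 are shown because they hold these elements, and those of Clock and Dbp because these genes differed most between the groups. Bases are given 5′ to 3′ on the gene's strand, with matches in capitals. The Per1 E-box began 166 bases before the start, the Cry1 E-box 60 bases before it, and the Per3 D-boxes 205 and 158 bases before it. For Clock and Per1 the window of the most upstream annotated start is shown.
Per1 (GRCm38.p6 chr11:69098699-69098948, plus strand): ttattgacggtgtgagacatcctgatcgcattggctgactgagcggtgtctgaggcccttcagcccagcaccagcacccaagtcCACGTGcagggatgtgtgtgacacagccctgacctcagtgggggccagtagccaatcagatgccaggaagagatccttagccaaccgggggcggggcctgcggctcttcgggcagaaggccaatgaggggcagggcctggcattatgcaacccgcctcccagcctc
Cry1 (GRCm38.p6 chr10:85185055-85185304, minus strand): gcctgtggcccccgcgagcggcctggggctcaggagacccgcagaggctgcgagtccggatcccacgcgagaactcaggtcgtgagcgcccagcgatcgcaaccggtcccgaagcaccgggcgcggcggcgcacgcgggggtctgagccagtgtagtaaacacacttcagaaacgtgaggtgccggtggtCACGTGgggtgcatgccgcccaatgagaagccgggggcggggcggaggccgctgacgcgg
Per3 (GRCm38.p6 chr4:151044666-151044915, minus strand): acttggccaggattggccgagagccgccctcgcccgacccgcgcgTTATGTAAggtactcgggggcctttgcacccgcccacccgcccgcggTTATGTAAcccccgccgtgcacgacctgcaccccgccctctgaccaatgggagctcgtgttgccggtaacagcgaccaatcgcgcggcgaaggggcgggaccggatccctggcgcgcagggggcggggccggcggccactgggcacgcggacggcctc
Clock (GRCm38.p6 chr5:76304793-76305042, minus strand): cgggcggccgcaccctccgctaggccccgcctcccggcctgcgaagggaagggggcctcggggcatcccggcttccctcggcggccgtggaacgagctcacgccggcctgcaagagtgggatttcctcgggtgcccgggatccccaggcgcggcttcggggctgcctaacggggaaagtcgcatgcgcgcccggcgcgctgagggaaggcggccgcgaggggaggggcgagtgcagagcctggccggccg
Dbp (GRCm38.p6 chr7:45704997-45705246, plus strand): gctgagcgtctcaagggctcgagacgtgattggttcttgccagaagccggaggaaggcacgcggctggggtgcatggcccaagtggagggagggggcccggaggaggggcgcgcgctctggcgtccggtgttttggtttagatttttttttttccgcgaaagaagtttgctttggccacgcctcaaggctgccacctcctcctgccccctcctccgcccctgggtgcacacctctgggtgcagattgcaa

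Clock encodes the histone acetyltransferase partner of BMAL1 and lay lower in the Nol3-/- MPN arrays. Its log2 signal read 6.99 and 6.61 in the Nol3+/+ arrays, against 5.35 and 5.70 in the Nol3-/- MPN arrays. Both Nol3-/- MPN arrays lay below both Nol3+/+ arrays. The log2 difference (Nol3-/- MPN minus Nol3+/+, as for all differences here) was -1.27 with a limma standard error (SE) of 0.22, a signal 2.42-fold lower. By the size and sign of its difference Clock ranked 68 from the lowest of the 16635 tested genes, at percentile 0.409. This difference was known when the gene set was put together, so it is given as a description. Clock was not among the 4 genes past the threshold, a Benjamini-Hochberg adjusted p under 0.05 over all tested genes. With any 1 array left out the difference lay between -1.46 and -1.08.

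In bulk RNA of sorted cells, fewer cells of a type and less RNA per cell cannot be told apart. Several other values followed the same division of the arrays as Clock. Xist, the RNA of the inactive X chromosome, read 5.43 and 5.28 in Nol3+/+, against 10.9 and 10.7 in Nol3-/- MPN, and both Nol3-/- MPN arrays lay below both Nol3+/+ arrays for 11 of 13 tested Y-linked genes, so that genotype, the disease label and sex-linked signal cannot be told apart. Xist was 1 of the 4 genes past the threshold (limma adjusted p = 0.023), and 0 genes passed it with X- and Y-linked genes left out. Nol3 itself read 5.31 and 5.52 in Nol3+/+, against 5.38 and 5.50 in Nol3-/- MPN. The sources used here do not place the deletion relative to the array probes, so the Nol3 row does not check the labels. Markers of mature granulocytes and monocytes had 7 of 8 tested members lower, against 48.2% of all tested genes. Adgre1 was higher without overlap (difference 0.37). Their summed linear signal over 12 measured genes was 1076 and 1484 in Nol3+/+, against 899.7 and 833.2 in Nol3-/- MPN. S100a9 and S100a8, the brightest of the 12, weighed most in this sum and were lower without overlap (differences -0.83 and -0.86). Ly6c2, Ltf and Lcn2 were also lower without overlap (-0.77, -0.27 and -0.23). Camp (-0.44) and Ngp (-0.24) were lower with overlap, so the sum does not stand for the whole list. Of these 12 markers, 4, Ly6g, Itgam, Csf1r and Cd14, lay below the limit for dim signals. Among these 4, Ly6g was higher without overlap, at 4.43 and 4.24 in Nol3+/+ against 4.96 and 5.38 in Nol3-/- MPN (difference 0.83). Itgam differed by 0.11, Csf1r by -0.02 and Cd14 by -0.07, all with overlap. For the sort itself, Kit read 8.07 and 8.10 in Nol3+/+, against 8.38 and 7.39 in Nol3-/- MPN, while Thy1 read 4.74 and 5.02 against 4.64 and 5.24, on both sides of the limit for dim signals. B cell markers had 6 of 6 tested members higher, with a median difference of 0.18, while 8600 of the 16635 tested genes were higher. Of the 6, Pax5 differed by 0.025 and Cd22 by 0.000165. The groups did not overlap for 4 of the 6, and 19.7% of all tested genes lay higher without overlap. The summed linear signal over 9 measured B cell markers was 351.2 and 342.1 in Nol3+/+ against 370.3 and 405.05 in Nol3-/- MPN. Among them Cd79b, a subunit of the B cell receptor, read 5.85 and 5.86 in Nol3+/+ against 6.33 and 6.38 in Nol3-/- MPN (difference 0.50, limma adjusted p = 0.841). Of the 9, 3, Ms4a1, Vpreb1 and Blnk, lay below the limit for dim signals. Vpreb1 was lower without overlap (difference -0.22), while Ms4a1 (0.18) and Blnk (0.06) were higher with overlap. Markers of the erythroid, T and NK cell, megakaryocyte and stromal lists had median differences of -0.07, 0.02, 0.01 and -0.04. Of 8 tested megakaryocyte markers, 2 were higher and 2 lower without overlap, against 19.7% and 15.9% of all tested genes. Pf4 was among the higher ones (difference 0.59, limma adjusted p = 0.841). The part of these markers in the clock gene differences was not tested.

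Arntl encodes BMAL1, the obligate partner of CLOCK. It read 5.15 and 5.42 in Nol3+/+, against 4.98 and 5.35 in Nol3-/- MPN. The groups overlapped, since Nol3-/- MPN replicate 2 lay above Nol3+/+ replicate 1. The log2 difference was -0.12 (SE 0.19, 95% interval -0.59 to 0.35, limma adjusted p = 0.950). The interval leaves out a fall in signal of the size seen for Clock. From the Nol3+/+ mean of 5.28, such a fall would end below the limit for dim signals, 4.835. No background was measured there, so the interval does not bound a fall in RNA. The difference reached 0.068 without Nol3-/- MPN replicate 1 and 0.020 without Nol3+/+ replicate 2, so its sign was not settled.

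**Figure D1:**
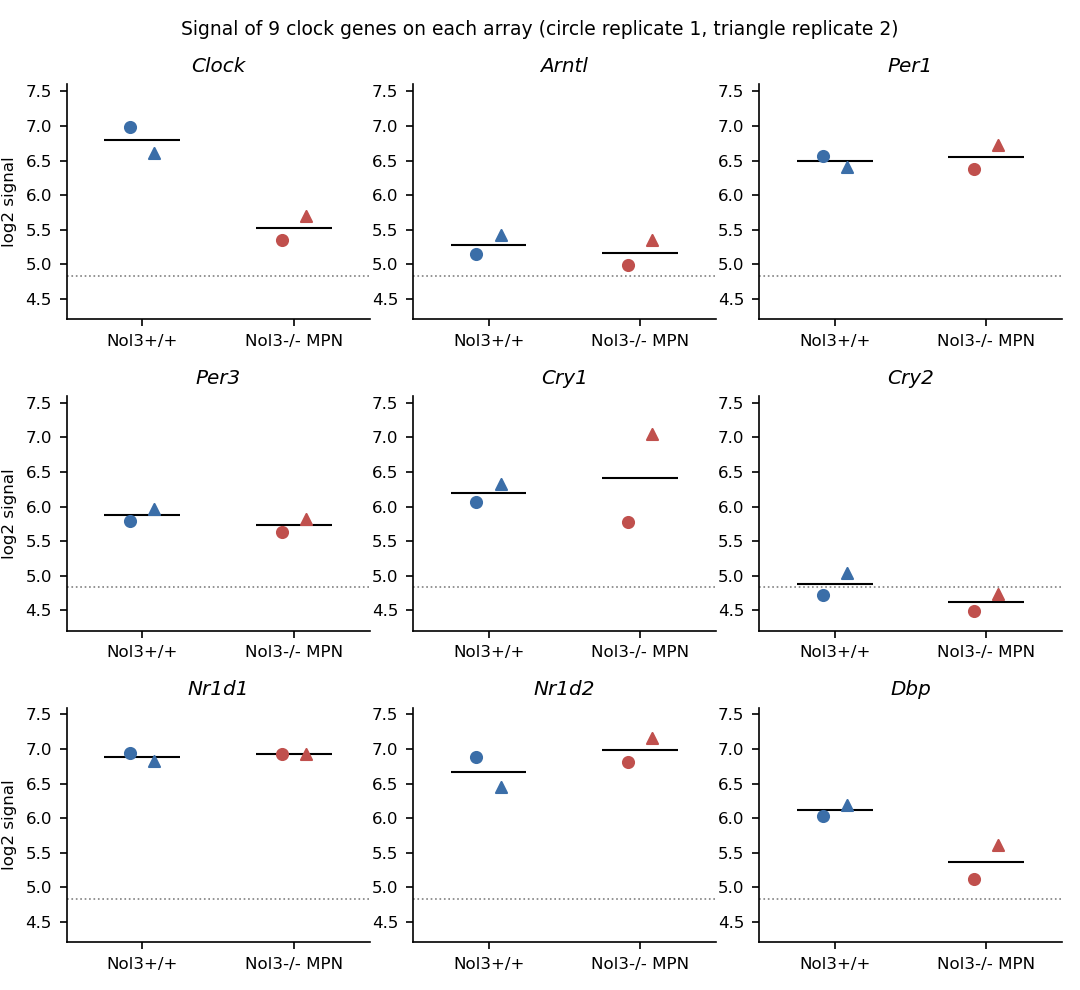
Log2 signal (vertical axis) of each of the 9 measured clock genes on the 2 Nol3+/+ arrays (blue) and the 2 Nol3-/- MPN arrays (red), with circles for replicate 1, triangles for replicate 2, a black bar for the group mean and a dotted line at the limit for dim signals, 4.835. Clock and Dbp have both red points below both blue points, and the points of the other 7 genes overlap.

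The repressor arm of the loop showed no difference past the threshold. Per1, a Period gene that also responds quickly to hormones and other stimuli, read 6.57 and 6.41 in Nol3+/+, against 6.37 and 6.73 in Nol3-/- MPN. The Nol3+/+ values lay inside the range of the Nol3-/- MPN values, and the difference was 0.06 (SE 0.21, 95% interval -0.48 to 0.60, limma adjusted p = 0.981). Its sign turned without Nol3-/- MPN replicate 2, where it was -0.12, and without Nol3+/+ replicate 2, where it was -0.020.

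Per3, the Period gene that is not required for the core oscillation, read 5.79 and 5.96 in Nol3+/+, against 5.63 and 5.82 in Nol3-/- MPN. The groups overlapped, since Nol3-/- MPN replicate 2 lay above Nol3+/+ replicate 1. The difference was -0.15 (SE 0.16, 95% interval -0.55 to 0.25, limma adjusted p = 0.918), and it lay between -0.25 and -0.06 with any 1 array left out. The values nearest to 0 came without Nol3+/+ replicate 2 (-0.07) or without Nol3-/- MPN replicate 1 (-0.06).

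Cry1 encodes a cryptochrome that holds CLOCK and BMAL1 inactive, and was the most variable of these genes in the Nol3-/- MPN group. It read 6.07 and 6.32 in Nol3+/+, whereas the Nol3-/- MPN arrays read 5.77 and 7.05, the lowest and the highest of the 4 values. The standard deviation (SD) of the Nol3-/- MPN arrays was 0.90 for Cry1, at percentile 98.9 of all tested genes, against 0.18 in Nol3+/+. The difference between the groups was 0.21 with an SE of 0.44 and a 95% interval from -0.89 to 1.32 (limma adjusted p = 0.963). It was 0.85 without Nol3-/- MPN replicate 1 and -0.43 without Nol3-/- MPN replicate 2. A change as large as that of Clock in the higher direction thus lay within the interval of the Cry1 difference.

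Cry2, the second cryptochrome, gave a dim row. It read 4.72 and 5.03 in Nol3+/+, against 4.49 and 4.74 in Nol3-/- MPN, with a mean over all arrays of 4.75, below the limit of 4.835. It was therefore left out of the fit. With no filter on dim genes its difference was -0.26 (SE 0.16, limma adjusted p = 0.881).

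Nr1d1 and Nr1d2 encode REV-ERB alpha and REV-ERB beta, and neither differed past the threshold. Nr1d1 read 6.94 and 6.82 in Nol3+/+, against 6.92 and 6.92 in Nol3-/- MPN. Its difference was 0.04 (SE 0.20, 95% interval -0.45 to 0.54, limma adjusted p = 0.989), and -0.019 without Nol3+/+ replicate 2. Nr1d2 read 6.89 and 6.45 in Nol3+/+, against 6.81 and 7.15 in Nol3-/- MPN. It had the largest positive difference among the 8 tested clock genes, 0.31 (SE 0.26, 95% interval -0.34 to 0.96, limma adjusted p = 0.883). The Nr1d2 groups overlapped, since Nol3+/+ replicate 1 lay above Nol3-/- MPN replicate 1, and the difference came to 0.09 when Nol3+/+ replicate 2 was left out and to 0.14 when Nol3-/- MPN replicate 2 was.

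Dbp, the D-box factor whose transcript swings widely over the day in many tissues, was the other member with no overlap between the groups. It read 6.02 and 6.20 in Nol3+/+, against 5.11 and 5.61 in Nol3-/- MPN. The log2 difference was -0.75 (SE 0.21), a signal 1.68-fold lower, and it lay between -0.999 and -0.50 with any 1 array left out. It did not pass the threshold over all genes (limma adjusted p = 0.841).

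Over the 8 tested clock genes, 4 had a higher and 4 a lower mean in Nol3-/- MPN, and 48.2% of all tested genes had a lower mean. Their median difference was -0.04, against 0.01 over all tested genes. Of the 8, 0 passed the adjusted threshold, against 0.0240% of all tested genes (4 of 16635). An unadjusted limma p under 0.05 was reached by 2 clock genes, Clock and Dbp, both lower, against 5.80% of all tested genes in either direction and 2.07% in that direction. Both Nol3-/- MPN arrays lay below both Nol3+/+ arrays for 2 of the 8, against 15.9% of all tested genes. They lay above both for 0 of the 8, against 19.7%. In either direction the groups did not overlap for 2 of the 8, against 35.5%. A difference of at least 2-fold was found for 1 clock gene, Clock, against 1.78% of all tested genes. Since Clock was known to be low when the set was chosen, nothing is read from these counts about the set.

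**Figure D2:**
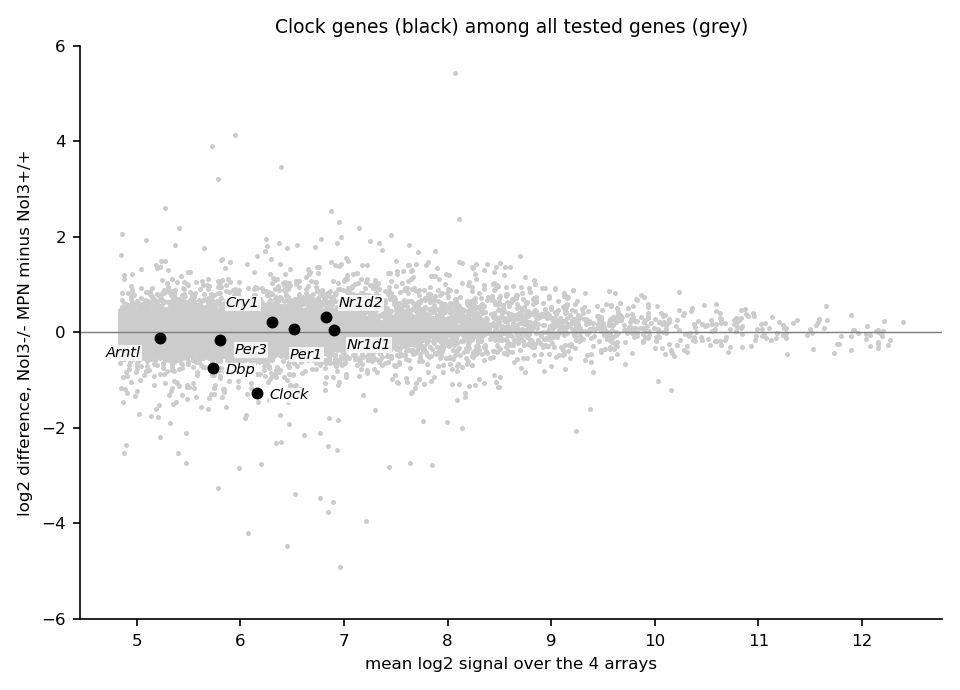
Mean log2 signal over the 4 arrays (horizontal axis) and log2 difference, Nol3-/- MPN minus Nol3+/+ (vertical axis), of the 16635 tested genes (grey) and the 8 tested clock genes (black). Clock at -1.27 and Dbp at -0.75 lie below the other clock genes, which lie between -0.15 and 0.31.

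Within the Nol3-/- MPN group, replicate 2 lay above replicate 1 for 8 of the 8 tested clock genes in the values as deposited, against 58.0% of all tested genes. With the arrays centred on their medians this held for 7 of the 8, without Nr1d1, against 52.3%. With quantile normalization it held for 8 of the 8, against 55.9%. In the values as deposited, the log2 gaps were 1.28 for Cry1, 0.50 for Dbp, 0.37 for Arntl and 0.36 for Per1. They were 0.35 for Clock, 0.34 for Nr1d2 and 0.19 for Per3, and 0.24 for Cry2, which was not tested. For Nr1d1 the gap was smallest, with values of 6.924 and 6.925, and it turned to -0.035 with the arrays centred on their medians. In Nol3+/+, replicate 2 lay above replicate 1 for 4 of the 8 tested clock genes, Arntl, Per3, Cry1 and Dbp, against 47.9% of all tested genes. With 2 arrays a group these gaps have no test.

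**Figure D3:**
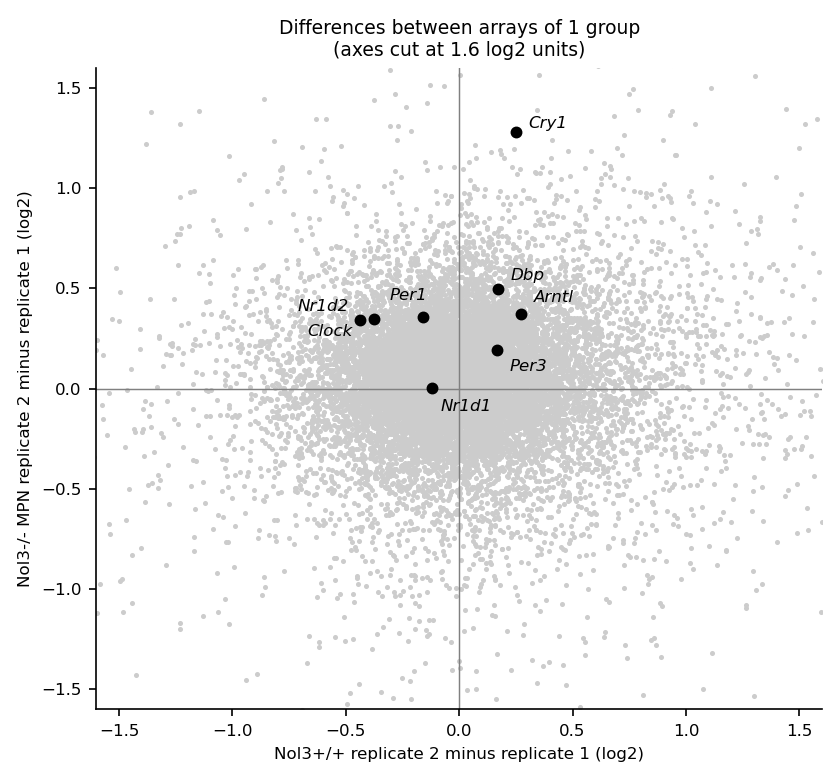
Log2 signal of replicate 2 minus replicate 1 in Nol3+/+ (horizontal axis) and in Nol3-/- MPN (vertical axis) for all tested genes (grey, axes cut at 1.6) and the 8 tested clock genes (black). In these values as deposited the clock genes lie above 0 on the vertical axis, from near 0 for Nr1d1 (below 0 with the arrays centred on their medians) to 1.28 for Cry1, and on both sides of 0 on the horizontal axis.

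Among 37 tested genes of 5 further clock lists (43 measured of 48 listed), 0 passed the adjusted threshold, against 0.0240% of all tested genes. The limma adjusted p-values of the 37 were 0.841 or more. Of the 37, 17 lay higher and 20 lower, with a median difference of -0.01, and an unadjusted limma p under 0.05 was reached by 1 with a higher and 2 with a lower mean, against 3.73% and 2.07% of all tested genes.

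The D-box factors outside the set were Hlf and Tef, relatives of Dbp, and the repressor gene Nfil3, which was too dim to test. Hlf, also a factor of stem cell maintenance and a member of the sort markers used here, read 6.44 and 6.09 in Nol3+/+, against 5.37 and 5.50 in Nol3-/- MPN. The groups did not overlap, and the difference was -0.83 (SE 0.18, limma adjusted p = 0.841), between -1.01 and -0.66 with any 1 array left out. Tef read 5.12 and 5.19 against 4.88 and 5.07, a difference of -0.18 (limma adjusted p = 0.870), also without overlap. Neither passed the threshold, and 15.9% of all tested genes had both Nol3-/- MPN arrays below both Nol3+/+ arrays, as these did.

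Clock output genes included Wee1, a cell cycle kinase gene that CLOCK and BMAL1 activate. Wee1 read 8.58 and 8.47 in Nol3+/+, against 7.99 and 7.73 in Nol3-/- MPN. Its groups did not overlap, with a difference of -0.66 (SE 0.23, limma adjusted p = 0.841) that lay between -0.80 and -0.53 with any 1 array left out. The list of 7 tested output genes had 5 lower and 2 higher. Next by p-value were the chaperone gene Fkbp5, with a difference of 0.11, and the ring finger gene Lonrf3, with a difference of -0.23.

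Of 11 tested genes of kinases, phosphatases and ubiquitin ligases that act on clock proteins, 7 lay higher and 4 lower. Prkaa1, a catalytic subunit of the energy sensor AMPK, which marks cryptochromes for degradation, read 7.12 and 7.15 in Nol3+/+, against 8.18 and 7.96 in Nol3-/- MPN. Its groups did not overlap, and the difference was 0.93 (SE 0.22, limma adjusted p = 0.841), between 0.83 and 1.04 with any 1 array left out. Gsk3b, a kinase of several clock proteins, read 5.56 and 7.05 in Nol3+/+, against 7.54 and 6.82 in Nol3-/- MPN. The difference of 0.87 for Gsk3b rested on the low Nol3+/+ replicate 1, and was 0.12 without that array. Csnk2a1, a catalytic subunit of casein kinase 2, differed by 0.23.

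Of 7 tested paralogues, nuclear receptors and repressors outside the set, 2 lay higher and 5 lower. An unadjusted limma p under 0.05 was reached by 0 of the 7, against 5.80% of all tested genes. Ciart, an E-box repressor gene, read 4.96 and 4.98 in Nol3+/+, against 5.32 and 5.16 in Nol3-/- MPN, a difference of 0.27 with no overlap between the groups (limma adjusted p = 0.841). Cipc, an inhibitor of CLOCK, differed by -0.26 and Rora, an activator of Arntl, by -0.11. Npas2, the CLOCK paralogue, was too dim to test, with values of 4.55 and 4.59 in Nol3+/+, against 4.45 and 4.97 in Nol3-/- MPN. Among 10 tested cofactors 6 lay higher and 4 lower. Those with the smallest p were Kmt2a (difference 0.62), Wdr5 (difference -0.28) and Crebbp (difference 0.37). They encode histone-modifying proteins or, for Wdr5, a subunit of their complexes.

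**Figure D4:**
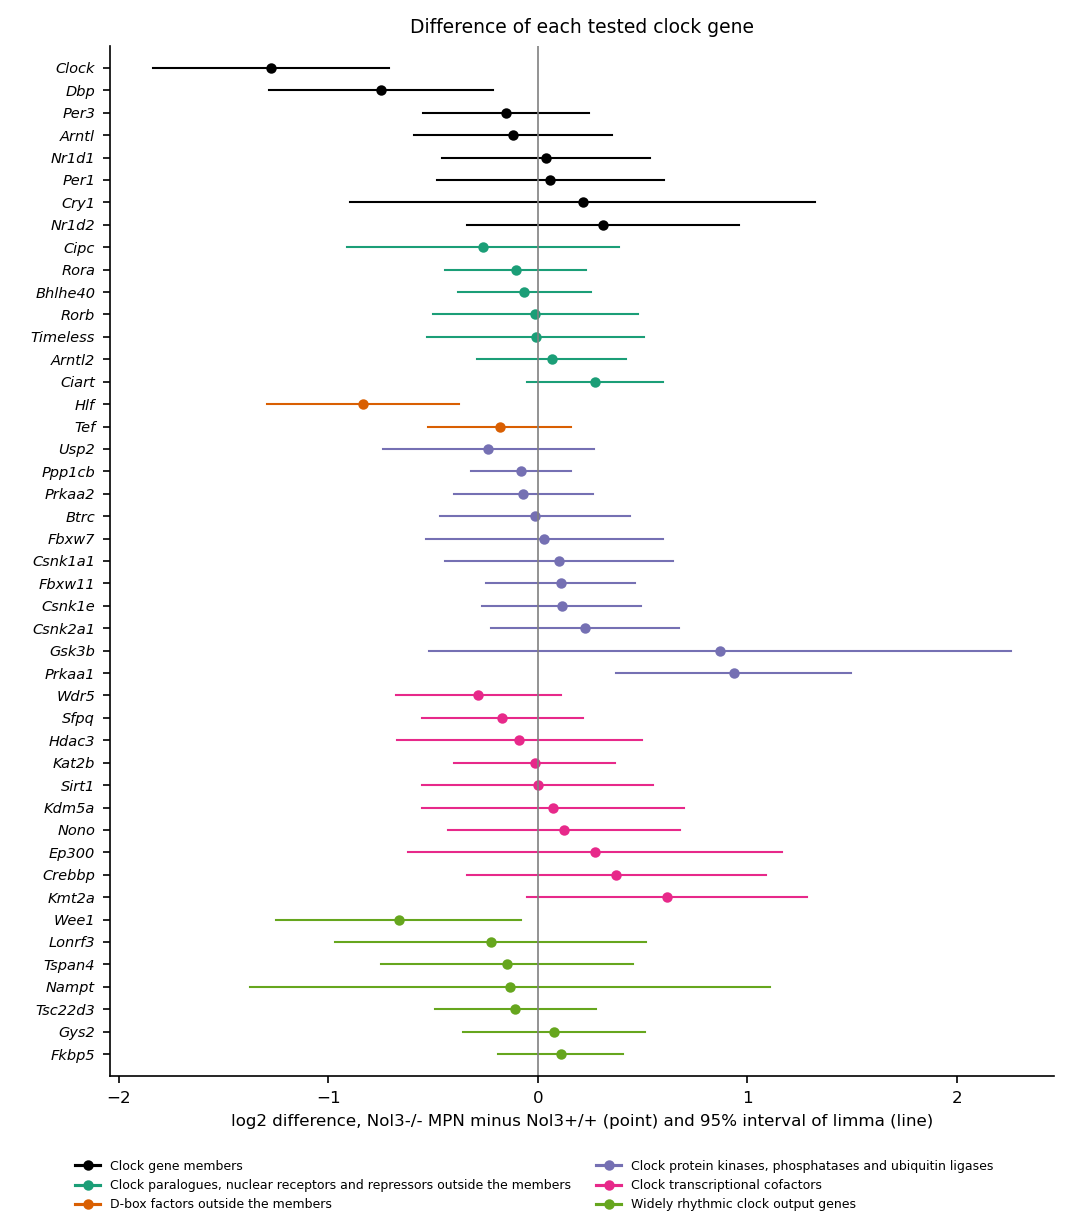
Log2 difference, Nol3-/- MPN minus Nol3+/+ (points), with the 95% interval of limma (lines) for the 8 tested clock genes (black) and 37 further tested clock genes coloured by list. Clock, Dbp, Hlf and Wee1 lie lowest, from -1.27 to -0.66, and Prkaa1 at 0.93 lies highest. None passed the adjusted threshold, which 0.0240% of all tested genes passed.

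The tested genes whose values ran most like those of Clock over the 4 arrays, by Euclidean distance of row-centred log2 values, were Olfr394, Gm38396 and Smok4a, at distances of 0.19, 0.22 and 0.24. Olfr394, an olfactory receptor gene, read 7.26 and 6.73 in Nol3+/+, against 5.39 and 5.75 in Nol3-/- MPN. The difference was -1.35 for Gm38396 and -1.21 for Smok4a. None passed the threshold, with limma adjusted p-values between 0.696 and 0.841. With 4 arrays, likeness of this kind rests on few values.

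**Figure D5:**
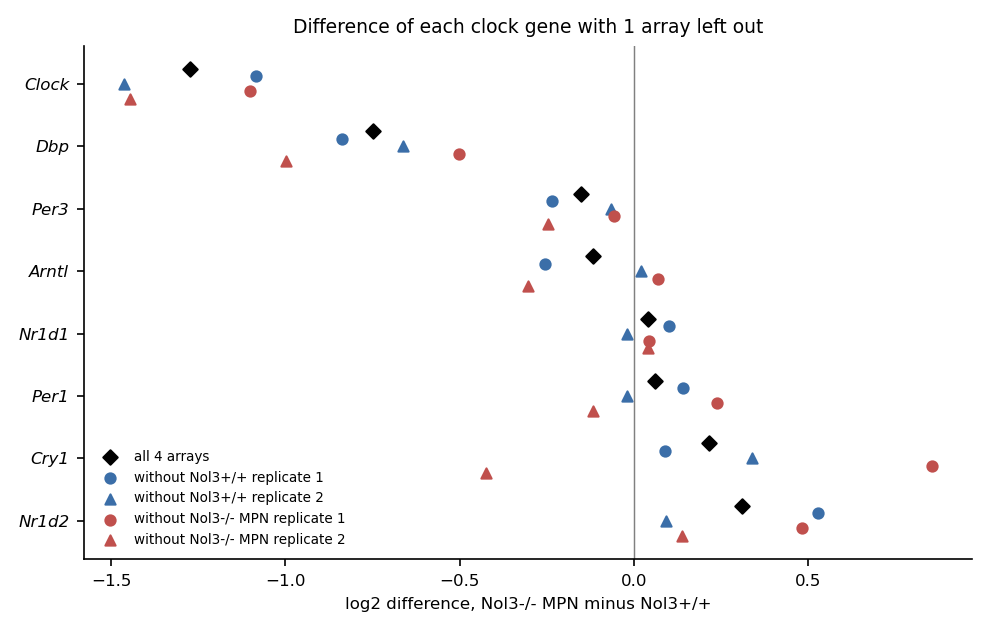
Log2 difference, Nol3-/- MPN minus Nol3+/+ (horizontal axis), of the 8 tested clock genes with all 4 arrays (black diamonds) and without 1 array (coloured points). Clock stays between -1.46 and -1.08 and Dbp between -0.999 and -0.50, while Arntl, Nr1d1, Per1 and Cry1 have points on both sides of 0.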

How the data were processed

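RNA of 4 samples, 2 per group, was column-purified, amplified isothermally from a single primer and biotin-labelled, per the labels' protocols. Affymetrix Expression Console and Transcriptome Analysis Console are named in the submitters' processing notes. For their settings and the normalization, the sources used here give nothing. Normalized values of 41345 rows were deposited, treated here as log2 signals. That scale was taken from the values, with array medians between 5.35 and 5.39, and the log base is not stated, so every fold rests on base 2. Precision is limited by the number of arrays and by the spread of the Nol3+/+ pair. Over the tested genes the 2 Nol3+/+ arrays correlated at r = 0.911, and the 2 Nol3-/- MPN arrays at 0.949. Nol3+/+ replicate 2 correlated more with the Nol3-/- MPN arrays (0.929 and 0.945) than with its own replicate. Nol3+/+ replicate 1 correlated with them at 0.899 and 0.908.

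Gene names came from the platform annotation. A single symbol stood beside 23521 rows, which alone were named and gave 22180 genes, several symbols beside 1814 and no symbol beside 16010. Of several rows of a gene, the one with the highest mean was used. Genes whose mean lay under the 25th percentile, 4.835, were left out as dim, which removed 5545. The group comparison used limma 3.58.1 under R 4.3.3 (lmFit, eBayes with a variance trend, 2 residual and 3.19 prior degrees of freedom, two-sided, Benjamini-Hochberg over 16635 genes, threshold 0.05). The procedure was also run on simulated data. That check asked for the right sign of large simulated differences and a small mean error, not for how many passed the threshold. SE is limma's standard error, and intervals are 95% intervals. Summed signals add the values as linear signals. Promoter windows and their build came from a RefSeq table of GRCm38.p6, which listed 9 of the 10 genes. Named genes were the members, the 3 genes with the smallest p of each clock list and further examples of a count, the 3 genes most like Clock, and checks of the labels. The members and lists were chosen with earlier results of these data known. Alternatives were a replicate block, each array left out, other filters, normalizations, variance models and row choices. The shared replicate numbers gave no pairing in the labels.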

Additional observations from a re-analysis of the deposited data

How the results depend on the processing

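Under all 14 alternatives 0 clock genes passed the adjusted threshold, and Clock, Dbp, Per3 and Nr1d2 kept the sign of their differences. Clock ranged from -1.46 to -1.08 and Dbp from -0.999 to -0.50. With all 4 arrays and the main settings the limma adjusted p of Clock was 0.696. Only the fits without 1 array, the quantile normalization and the centring on medians could change the differences of these genes. The other alternatives left the differences the same by design and changed only the p-values, so they say nothing about the signs. With 1 array left out, which assumes that the lone array varies like the other group, the sign turned for Arntl (range -0.30 to 0.068), Cry1 (-0.43 to 0.85), Nr1d1 (-0.019 to 0.10) and Per1 (-0.12 to 0.24), and over all genes 0 to 39 passed the threshold: 18 without Nol3+/+ replicate 1, 39 without Nol3+/+ replicate 2, and 0 without either Nol3-/- MPN array. With the replicate number as a block, 0 genes passed in place of 4. The gaps between replicates of the groups correlated at r = 0.05 across genes, which are not independent replicates. With a single gap per group this value cannot show whether the samples were paired. Without X- and Y-linked genes, an alternative chosen after seeing the data, 0 passed. The cause of these shifts in the counts was not tested. The other alternatives gave between 4 and 6. Detection calls were not used, so a low signal such as that of Cry2 has no measured background beside it.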

Other observations

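Immediate-early genes, which respond within minutes to signals and to cell handling and some of which the clock also gates, had 6 of 8 tested members lower and 2 higher in Nol3-/- MPN, with a median difference of -0.18, against 0.01 over all tested genes. Both Nol3-/- MPN arrays lay below both Nol3+/+ arrays for 4 of the 8, against 15.9% of all tested genes. Fos, a subunit of the AP-1 factor, read 6.21 and 5.98 in Nol3+/+, against 5.57 and 5.61 in Nol3-/- MPN, a difference of -0.51 (limma adjusted p = 0.841). Egr1, a zinc finger factor, read 5.41 and 5.42 against 4.99 and 5.08, a difference of -0.38 (limma adjusted p = 0.841). Junb differed by -0.32 and Egr2 by 0.22. Of the 8, 0 passed the adjusted threshold, against 0.0240% of all tested genes.

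Tsc22d3 and Fkbp5, genes that glucocorticoids induce and whose transcripts follow the daily hormone rhythm in many tissues, lay close together in the groups. Tsc22d3 read 5.92 and 5.88 in Nol3+/+, against 5.69 and 5.89 in Nol3-/- MPN, a difference of -0.11. Fkbp5 read 4.86 and 4.89 against 4.98 and 4.99, a difference of 0.11 with no overlap and a limma adjusted p of 0.918. The Nampt values, of an enzyme of NAD synthesis under clock control, were 5.10 and 6.61 in Nol3+/+, against 5.75 and 5.69 in Nol3-/- MPN, so that the Nol3+/+ arrays held both the lowest and the highest.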
